A study of Homo sapiens with 6 samples.

Results

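Integrin and laminin subunit genes were followed across A549, an epithelial cell line from a human lung adenocarcinoma, after RNA interference. Members were all probes whose annotated symbol is an integrin alpha subunit, an integrin beta subunit or a laminin chain: 56 of the 48701 probes of an Illumina HumanHT-12 bead array, for 35 of the 18833 named genes. They comprised 17 integrin alpha genes, 8 integrin beta genes and 10 laminin genes. LAMA3 and ITGA8 carried no annotated probe and were not analysed here. All cells were A549 grown in DMEM with 10% FCS, and each of 3 groups was read on 2 arrays from total RNA: cells transfected with a control siRNA, with an siRNA against Snai1, and with an siRNA against ncRNA-a7. Snai1 (human gene SNAI1) is a transcriptional repressor of epithelial adhesion genes, and ncRNA-a7 is a long noncoding RNA encoded near it, so the design sets each depletion against control transfection and the pair against each other. The siRNA sequences, their number and the time after transfection are not given in the sources used here, so 1 siRNA per target cannot be told apart from several.

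Integrins are surface receptors made of 1 alpha and 1 beta subunit, which bind the matrix outside the cell and the cytoskeleton inside it. Laminins are trimers of an alpha, a beta and a gamma chain and are the main adhesive proteins of basement membranes, the sheets on which epithelia rest. Epithelial cells bind laminin mostly through alpha3-beta1 and alpha6-beta1, linked to actin, and through alpha6-beta4, which anchors keratin filaments in hemidesmosomes. The beta1 subunit also pairs with alpha chains for collagen and fibronectin, the alphaV subunit pairs with several beta chains, and a set led by beta2 is typical of blood cells.

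Array values are scanner signals in arbitrary units on a linear scale, and each gene stands for its brightest probe. Arrays carry the replicate numbers of the labels, and "a7" is short for ncRNA-a7 siRNA. The mean signal per array was 715 to 914 and the median 147.5 to 154.1, with Snai1 array 2 the lowest in both. Correlation over probes was 0.9914 to 0.9925 within groups and 0.987 to 0.9893 between groups. The targets gave no usable check of the labels: the SNAI1 probe read 142.7 and 144.2 with control, 127.5 and 127.3 with Snai1 siRNA and 138.8 and 146.5 with a7 siRNA, all below the median-brightness filter (adjusted p = 0.479 for Snai1 against control with all probes tested). The probe of TRERNA1, the name under which ncRNA-a7 was looked up, also lay below it at 117.9 and 117.8 with control, 142.7 and 128.6 with Snai1 siRNA, and 129.7 and 132.5 with a7 siRNA. All 5 epithelial markers passed the filter, with 1 rise (CDH1) and 1 fall (EPCAM) with Snai1 siRNA, and 2 rises (CDH1, KRT8) and 2 falls (EPCAM, KRT18) with a7 siRNA. The labels do not say that replicates were separate cultures, so the spread behind each p-value may be technical. In bulk RNA, fewer cells of a type and less RNA per cell cannot be told apart.

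A larger share of integrin and laminin genes than of the whole array passed the test upward in both depletions. The members were chosen with earlier results of these data known, so these shares describe the set and are not an independent test. Of 35 genes, 21 passed the brightness filter (mean log2 value over all arrays above the median of all probes), each of them above it in all 3 groups. A gene is called here at limma's Benjamini-Hochberg adjusted p under 0.05 over 19730 features. With Snai1 siRNA, 9 of the 21 rose (42.9%) against 4.88% of all features, or 6.3% of named genes alone. With a7 siRNA, 10 rose (47.6%) against 5.78% of all features, or 7.37% of named genes. No member was called lower, where 4.28% and 4.16% of all features were (limma). For 21 genes, 0 is near these shares and is not read as a result. Of members that pointed down, only ITGB2 with Snai1 siRNA had an unadjusted p under 0.05. The 9 comprised 4 alpha, 2 beta and 3 laminin genes, and the 10 comprised 5, 2 and 3. The median log2 difference of the 21 was 0.39 with Snai1 siRNA and 0.30 with a7 siRNA, beside -0.01 for all features in each. Fold changes are on a log2(value + offset) scale after background correction and quantile normalization, which understates the change of dim genes. Both comparisons use the same 2 control arrays, so their values are given side by side and not as independent results.

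These counts moved with single arrays. With Snai1 siRNA, 5 genes rose without Snai1 array 1, 5 without Snai1 array 2, 3 without control array 1 and 4 without control array 2. With a7 siRNA, 4 rose without control array 1, 5 without control array 2, 6 without a7 array 1 and 7 without a7 array 2. Median scaling in place of quantile normalization gave 3 rises with Snai1 siRNA, and moved the higher share of all called features from 53.3% to 33.7% there. A smaller offset of 16 gave 3 rises with Snai1 siRNA and 6 with a7 siRNA. With no brightness filter, 4 of all 35 genes rose with Snai1 siRNA, against 1.2% of features, and 7 with a7 siRNA, against 1.36%. The Snai1 rises of ITGA1, ITGA6, ITGAV, ITGB1 and LAMB1 were not called under any of these 3 settings, nor LAMA5 under the first 2. The a7 rises of ITGB1 and LAMB1 were likewise lost under all 3, ITGA1 with the offset or no filter, LAMA5 with the offset and ITGAV with median scaling. ITGB1 was lost in both comparisons with the mean of its probes. ITGB4, ITGA3 and LAMC1 kept their call in both comparisons in all 18 alternatives, and ITGAM with a7 siRNA in the 17 that tested it.

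**Figure D1:**
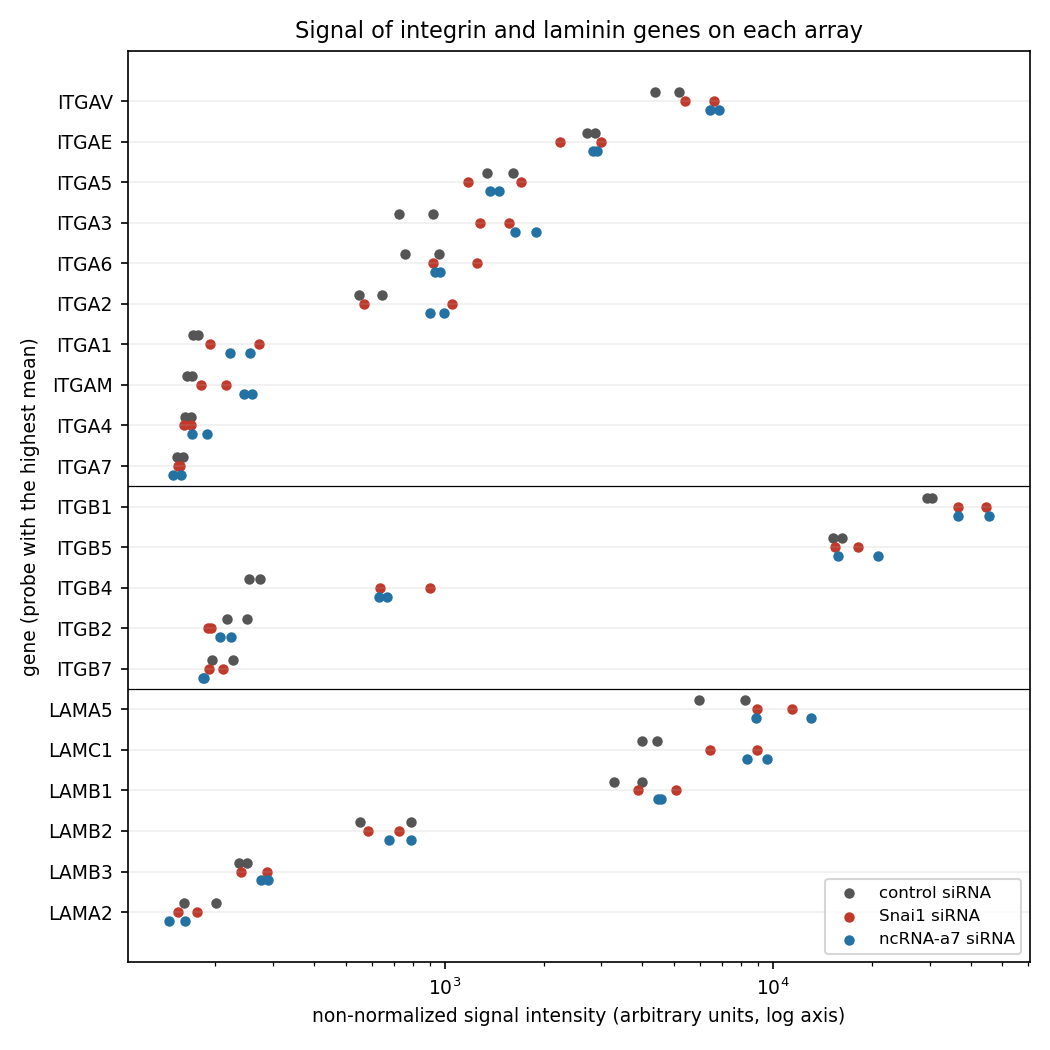
Non-normalized signal (arbitrary units, log axis) of the 21 integrin and laminin genes past the filter, 1 point per array, with alpha, beta and laminin genes in separate blocks. For ITGB4, ITGA3 and LAMC1 every array of both depletions lies above both control arrays. Probes differ in brightness, so genes are not compared with each other.

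The promoter letters of 3 called genes are shown because SNAI1 binds E-box motifs in the promoters of epithelial genes. Both strands of the 250 bases before each RefSeq start (GRCh38.p14) were searched for the E-box CAGGTG, which reads CACCTG on the other strand. Of 35116 promoters, 6143 (17.5%) hold it at least once and 2.53% hold it 2 or more times. The table has 24 of the 35 genes, with 31 windows. Counted by window, as the 17.5% is, 7 of the 31 hold the motif. They belong to 7 of the 24 genes: ITGA6, ITGA11, ITGB5, ITGB6, LAMA5, LAMB3 and LAMB4. Among the 9 table genes called in either comparison, 2 hold the motif, ITGA6 and LAMA5. ITGB4 and ITGA3, also called, are not in the table and were not searched. The window before the downstream ITGA6 start holds 0 motifs. The ITGA6 window (chr2:172427086-172427335, plus strand, before the upstream one of its starts) holds CACCTG with first bases 136 and 46 before the start, LAMA5 (chr20:62367313-62367562, minus strand) holds CAGGTG with its first base 201 before the start, and LAMC1 (chr1:183023170-183023419, plus strand) holds neither. Capitals mark the motif, and each line reads 5′ to 3′ on the gene's strand.
ITGA6: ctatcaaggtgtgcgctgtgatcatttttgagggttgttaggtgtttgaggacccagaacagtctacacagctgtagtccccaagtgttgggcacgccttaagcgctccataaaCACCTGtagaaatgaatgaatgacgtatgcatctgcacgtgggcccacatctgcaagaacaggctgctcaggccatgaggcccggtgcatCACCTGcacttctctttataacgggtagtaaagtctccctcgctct
LAMA5: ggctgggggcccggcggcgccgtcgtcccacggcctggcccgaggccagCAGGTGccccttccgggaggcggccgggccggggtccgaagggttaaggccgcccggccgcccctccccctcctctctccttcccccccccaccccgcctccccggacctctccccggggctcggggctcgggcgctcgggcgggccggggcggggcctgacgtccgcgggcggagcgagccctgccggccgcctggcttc
LAMC1: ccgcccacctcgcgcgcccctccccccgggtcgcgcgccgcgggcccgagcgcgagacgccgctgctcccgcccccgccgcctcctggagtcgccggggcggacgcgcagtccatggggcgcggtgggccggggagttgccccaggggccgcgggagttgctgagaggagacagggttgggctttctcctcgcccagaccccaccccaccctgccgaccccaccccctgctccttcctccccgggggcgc
A match in these letters is a description and not a measured binding site.

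ITGB4, the beta chain of the hemidesmosome receptor alpha6-beta4, had the largest rise of the 21 genes in both comparisons. Its probe read 253 and 274 on the control arrays, 899 and 637 on the Snai1 arrays and 630.2 and 665 on the a7 arrays. Every depletion array exceeded both control arrays, by more than the spread within any group. The rise was 3.53-fold (log2 1.82 ± 0.12, adjusted p = 9.48e-06) with Snai1 siRNA and 2.85-fold (log2 1.51 ± 0.12, adjusted p = 2.24e-05) with a7 siRNA, where errors are standard errors of the fit over 2 arrays a group. A second ITGB4 probe read 182 and 167 on the control arrays, 355 and 263 on the Snai1 arrays and 302 and 271 on the a7 arrays. It rose as well, 2.15-fold (log2 1.10 ± 0.14, adjusted p = 0.000567) and 1.92-fold (log2 0.94 ± 0.14, adjusted p = 0.00127) with every probe tested alone. A further pair of ITGB4 probes lay below the filter at signals of 129.9 to 201.9 and had log2 differences of -0.24 and -0.33 with Snai1 siRNA and -0.30 and -0.36 with a7 siRNA, untested.

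ITGA6, the alpha chain that pairs with ITGB4 in hemidesmosomes and with ITGB1 elsewhere, was called with Snai1 siRNA. Its brightest probe read 755 and 961 on the control arrays, 1250.0 and 922 on the Snai1 arrays and 937 and 966 on the a7 arrays. Raw signals overlapped between Snai1 and control arrays, and normalized values did not. It rose 1.37-fold (log2 0.46 ± 0.11, adjusted p = 0.0264) there and was not called with a7 siRNA, at a log2 difference of 0.23 (95% interval -0.02 to 0.48, adjusted p = 0.246). The Snai1 call had adjusted p 0.0871 to 0.2 without any 1 of the 4 arrays compared. A second ITGA6 probe, at 176.6 to 240.8, gave the reverse pattern of calls: 0.41 (adjusted p = 0.0731) with Snai1 siRNA and 0.46 (adjusted p = 0.0439) with a7 siRNA, the latter called with every probe tested alone. The difference between the depletions at the brightest probe, -0.23 (95% interval -0.48 to 0.02, adjusted p = 0.253), was not called.

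ITGA3, the alpha chain of the laminin receptor alpha3-beta1, rose in both depletions. Its probe read 726 and 921 on the control arrays, 1569 and 1281 on the Snai1 arrays and 1892 and 1640.1 on the a7 arrays. All 4 depletion arrays lay above both control arrays, and the a7 arrays also above the Snai1 arrays. The rise was 1.92-fold (log2 0.94 ± 0.12, adjusted p = 0.000858) with Snai1 siRNA and 2.33-fold (log2 1.22 ± 0.12, adjusted p = 0.000145) with a7 siRNA. A dim second probe, at 125.2 to 154.5, lay below the filter with log2 differences of -0.10 and 0.16.

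ITGB1, the beta chain shared by most matrix receptors of these cells, read 29427 and 30489 on the control arrays, 44486 and 36581 on the Snai1 arrays and 45419.7 and 36722 on the a7 arrays. Neither depletion overlapped the controls, the depletions overlapped each other, and the 2 arrays of each depletion lay further apart than the control arrays. It rose 1.44-fold (log2 0.52 ± 0.11, adjusted p = 0.0144) with Snai1 siRNA and 1.37-fold (log2 0.45 ± 0.11, adjusted p = 0.0282) with a7 siRNA. Neither call stood without single arrays: adjusted p was 0.0571 to 0.107 without any 1 of the 4 arrays compared for Snai1 siRNA, and 0.0517 to 0.148 without any 1 of the 4 arrays compared for a7 siRNA. Of the other ITGB1 probes, one at 15490 to 23353 gave 0.41 (adjusted p = 0.05) and 0.35 (adjusted p = 0.0856), and one at 323.3 to 465.6 gave 0.26 (adjusted p = 0.442) and 0.16 (adjusted p = 0.648). The first of these stood at the threshold itself with Snai1 siRNA.

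The alpha chains that join ITGB1 to form collagen receptors, ITGA1 and ITGA2, followed in part: ITGA1 rose in both depletions and ITGA2 was called with a7 siRNA. ITGA1 read 170.4 and 177 on the control arrays, 272 and 192 on the Snai1 arrays and 255 and 222 on the a7 arrays. The signal on control array 1 lay within the 110.5 to 172.1 spanned by members below the filter, and that on control array 2 just above. All depletion arrays lay above the controls, though Snai1 array 2 came near them. It rose 1.49-fold (log2 0.58 ± 0.14, adjusted p = 0.0269) and 1.53-fold (log2 0.61 ± 0.14, adjusted p = 0.0201). Adjusted p was 0.137 to 0.2 without Snai1 array 1 or either control array for Snai1 siRNA, where the difference was 0.37 without Snai1 array 1, and 0.12 to 0.125 without either control array or a7 array 1 for a7 siRNA, where the authors' scaled values gave 0.40. ITGA2 read 549 and 642 on the control arrays, 1052 and 568 on the Snai1 arrays and 901 and 996 on the a7 arrays. The a7 arrays stood above the rest except Snai1 array 1, while Snai1 array 2 lay among the controls in raw signal. ITGA2 rose 1.71-fold (log2 0.78 ± 0.15, adjusted p = 0.00865) with a7 siRNA and was not called with Snai1 siRNA, at 0.51 (95% interval 0.18 to 0.85, adjusted p = 0.0602). The a7 call had adjusted p 0.0669 to 0.0771 without either control array or a7 array 2. The Snai1 difference turned on single arrays, at 0.76 (adjusted p = 0.0246, a call) without Snai1 array 2 and 0.26 (adjusted p = 0.361) without Snai1 array 1.

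ITGA5, the alpha chain of the main fibronectin receptor, was not called. It read 1341 and 1618 on the control arrays, 1705 and 1180.1 on the Snai1 arrays and 1369 and 1460.4 on the a7 arrays, with the groups overlapping. Its log2 difference was 0.05 (95% interval -0.20 to 0.30, adjusted p = 0.839) with Snai1 siRNA and 0.01 (95% interval -0.24 to 0.26, adjusted p = 0.974) with a7 siRNA. ITGA4, an alpha chain for fibronectin and VCAM1, read 161.0 to 189.1 over all arrays and was not called, at 0.05 (95% interval -0.20 to 0.30, adjusted p = 0.844) and 0.19 (95% interval -0.06 to 0.44, adjusted p = 0.351). ITGA7, a laminin receptor chain of muscle, read 149 to 159 and was not called, at 0.02 (95% interval -0.23 to 0.28, adjusted p = 0.935) and -0.03 (95% interval -0.29 to 0.22, adjusted p = 0.898).

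ITGAV, the alpha chain of vitronectin receptors and of receptors that release active TGF-beta, read 4367 and 5160.4 on the control arrays, 6622 and 5401 on the Snai1 arrays and 6851 and 6422 on the a7 arrays. Every depletion array exceeded both controls, in raw signal Snai1 array 2 by the least. On the normalized scale Snai1 array 1 did so by the least, at log2 12.52 against 12.66 on Snai1 array 2. It rose 1.39-fold (log2 0.48 ± 0.11, adjusted p = 0.0226) and 1.5-fold (log2 0.58 ± 0.11, adjusted p = 0.00792). Adjusted p was 0.103 to 0.181 without Snai1 array 2 or either control array for Snai1 siRNA, and 0.0565 to 0.0795 without either control array for a7 siRNA. Of the beta chains that pair with it, ITGB5 read 15194 and 16255 on the control arrays, 18097 and 15451 on the Snai1 arrays and 20932 and 15763 on the a7 arrays. Raw signals overlapped with the controls in both depletions. ITGB5 was not called at this probe, with 0.21 (95% interval -0.07 to 0.48, adjusted p = 0.365) and 0.27 (95% interval -0.01 to 0.54, adjusted p = 0.221). Of 5 ITGB5 probes past the filter, 1 was called, at 4050 to 6236: 0.41 (adjusted p = 0.053) with Snai1 siRNA and 0.49 (adjusted p = 0.0225), a rise, with a7 siRNA. ITGB3, ITGB6 and ITGB8, the remaining partners measured, lay below the filter.

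ITGAM, known as the alpha chain of complement receptor 3 on myeloid cells, was the only one of the 4 typical blood-cell chains past the filter (with ITGB2, ITGB7 and ITGAE) to rise. It read 164 and 169 on the control arrays, 216 and 181 on the Snai1 arrays and 258 and 245 on the a7 arrays. The control signals lay within the 110.5 to 172.1 spanned by members below the filter. They give no evidence on whether ITGAM is expressed in control cells. The a7 arrays stood above the Snai1 arrays, and these above the control arrays, with no overlap. It rose 1.74-fold (log2 0.80 ± 0.12, adjusted p = 0.00126) with a7 siRNA and was not called with Snai1 siRNA, at 0.39 (95% interval 0.14 to 0.64, adjusted p = 0.0547). With the authors' scaled values the a7 difference was 0.50, still called. The difference between the depletions, 0.41 (95% interval 0.16 to 0.66, adjusted p = 0.0509), missed the threshold narrowly. ITGB2, the only beta chain known to pair with ITGAM, read 217 and 250.1 on the control arrays, 195 and 191 on the Snai1 arrays and 207 and 223 on the a7 arrays. The Snai1 arrays lay below both controls, and the a7 arrays overlapped them. It was not called, at -0.28 (95% interval -0.55 to -0.02, adjusted p = 0.187) and -0.13 (95% interval -0.40 to 0.13, adjusted p = 0.563). ITGB7 and ITGAE, which together bind E-cadherin on lymphocytes, were not called. ITGB7, at signals of 184 to 227, gave -0.02 (95% interval -0.27 to 0.23, adjusted p = 0.936) and -0.24 (95% interval -0.49 to 0.00, adjusted p = 0.215). ITGAE, at 2241 to 2983, gave 0.02 (95% interval -0.23 to 0.28, adjusted p = 0.937) and 0.14 (95% interval -0.11 to 0.40, adjusted p = 0.504).

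Some leukocyte markers moved beside ITGAM. Of 5 measured, 3 passed the filter, and 2 of these, CD14 and CD68, rose in both depletions. The rises were 2.22-fold and 2.01-fold for CD14 (adjusted p = 0.000266 and 0.000439) and 2.05-fold and 1.56-fold for CD68 (adjusted p = 0.000771 and 0.0108). The other marker past the filter was called in neither. The summed signal of the 5 was 2115 and 2359 on control, 4543 and 3139 on Snai1 and 3473 and 2851 on a7 arrays. PTPRC, carried by nearly all blood leukocytes, stayed below the filter at 133 to 162, and CD3E at 127 to 144. Platelet markers summed to 586.5 to 672.6 over all arrays, with 1 of 4 past the filter and not called, and endothelial markers to 722.6 to 823.8, with 2 of 5 past it and 0 called. The part of such cells in the ITGAM result was not tested.

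Among laminin chains, LAMC1, the gamma1 chain of most laminins, rose most. It read 3979.9 and 4442 on the control arrays, 8919 and 6446 on the Snai1 arrays and 9581 and 8340.2 on the a7 arrays. All depletion arrays lay well above both controls. The rise was 2.01-fold (log2 1.01 ± 0.11, adjusted p = 0.000334) with Snai1 siRNA and 2.3-fold (log2 1.20 ± 0.11, adjusted p = 9.95e-05) with a7 siRNA. LAMA5, the alpha5 chain of the main laminins of adult epithelia, read 5969 and 8217 on the control arrays, 11403 and 8909 on the Snai1 arrays and 13078 and 8905 on the a7 arrays. Neither depletion overlapped the controls, the depletions overlapped each other, and replicates differed widely in raw signal in every group. On the normalized scale the Snai1 arrays lay close together, at log2 13.35 and 13.42. The control arrays stood at 12.56 and 12.81 and the a7 arrays at 13.61 and 13.18. It rose 1.62-fold (log2 0.69 ± 0.15, adjusted p = 0.0136) and 1.63-fold (log2 0.71 ± 0.15, adjusted p = 0.0122). Adjusted p was 0.1 to 0.165 without Snai1 array 2 or control array 1 for Snai1 siRNA, and 0.0935 to 0.146 without control array 1 or a7 array 1 for a7 siRNA.

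LAMB1, the beta1 chain that joins LAMC1 in laminins with a beta1 arm, read 3286 and 3992 on the control arrays, 5077 and 3876 on the Snai1 arrays and 4469.8 and 4560.3 on the a7 arrays. Snai1 array 2 lay between the controls in raw signal, and normalized values did not overlap. It rose 1.34-fold (log2 0.43 ± 0.11, adjusted p = 0.0365) and 1.35-fold (log2 0.43 ± 0.11, adjusted p = 0.0352). Neither call stood without single arrays: adjusted p was 0.0977 to 0.213 without any 1 of the 4 arrays compared for Snai1 siRNA, and 0.0548 to 0.198 without any 1 of the 4 arrays compared or Snai1 array 2 for a7 siRNA. A second LAMB1 probe, at 2656 to 5469, rose as well, by 1.55-fold (log2 0.63 ± 0.14, adjusted p = 0.0146) and 1.52-fold (log2 0.60 ± 0.14, adjusted p = 0.0178) with every probe tested alone.

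The remaining laminin chains past the filter were not called. LAMB2, the beta chain that can replace LAMB1, read 552 and 787 on the control arrays, 723 and 582 on the Snai1 arrays and 675 and 791 on the a7 arrays, with all groups overlapping, and gave 0.10 (95% interval -0.20 to 0.41, adjusted p = 0.731) and 0.22 (95% interval -0.09 to 0.52, adjusted p = 0.385). LAMB3, the beta chain of the anchoring laminin of skin and airway, read 235 and 249 on the control arrays, 287 and 239.6 on the Snai1 arrays and 289.9 and 276 on the a7 arrays. The a7 arrays lay above both controls, without a call, at 0.30 (95% interval 0.06 to 0.55, adjusted p = 0.118), and with Snai1 siRNA the difference was 0.22 (95% interval -0.03 to 0.47, adjusted p = 0.28). LAMA2, the alpha chain of muscle laminin, read 201 and 161 on the control arrays, 154 and 176 on the Snai1 arrays and 162 and 144 on the a7 arrays, also overlapping, and gave -0.12 (95% interval -0.53 to 0.28, adjusted p = 0.755) and -0.34 (95% interval -0.74 to 0.07, adjusted p = 0.296).

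**Figure D2:**
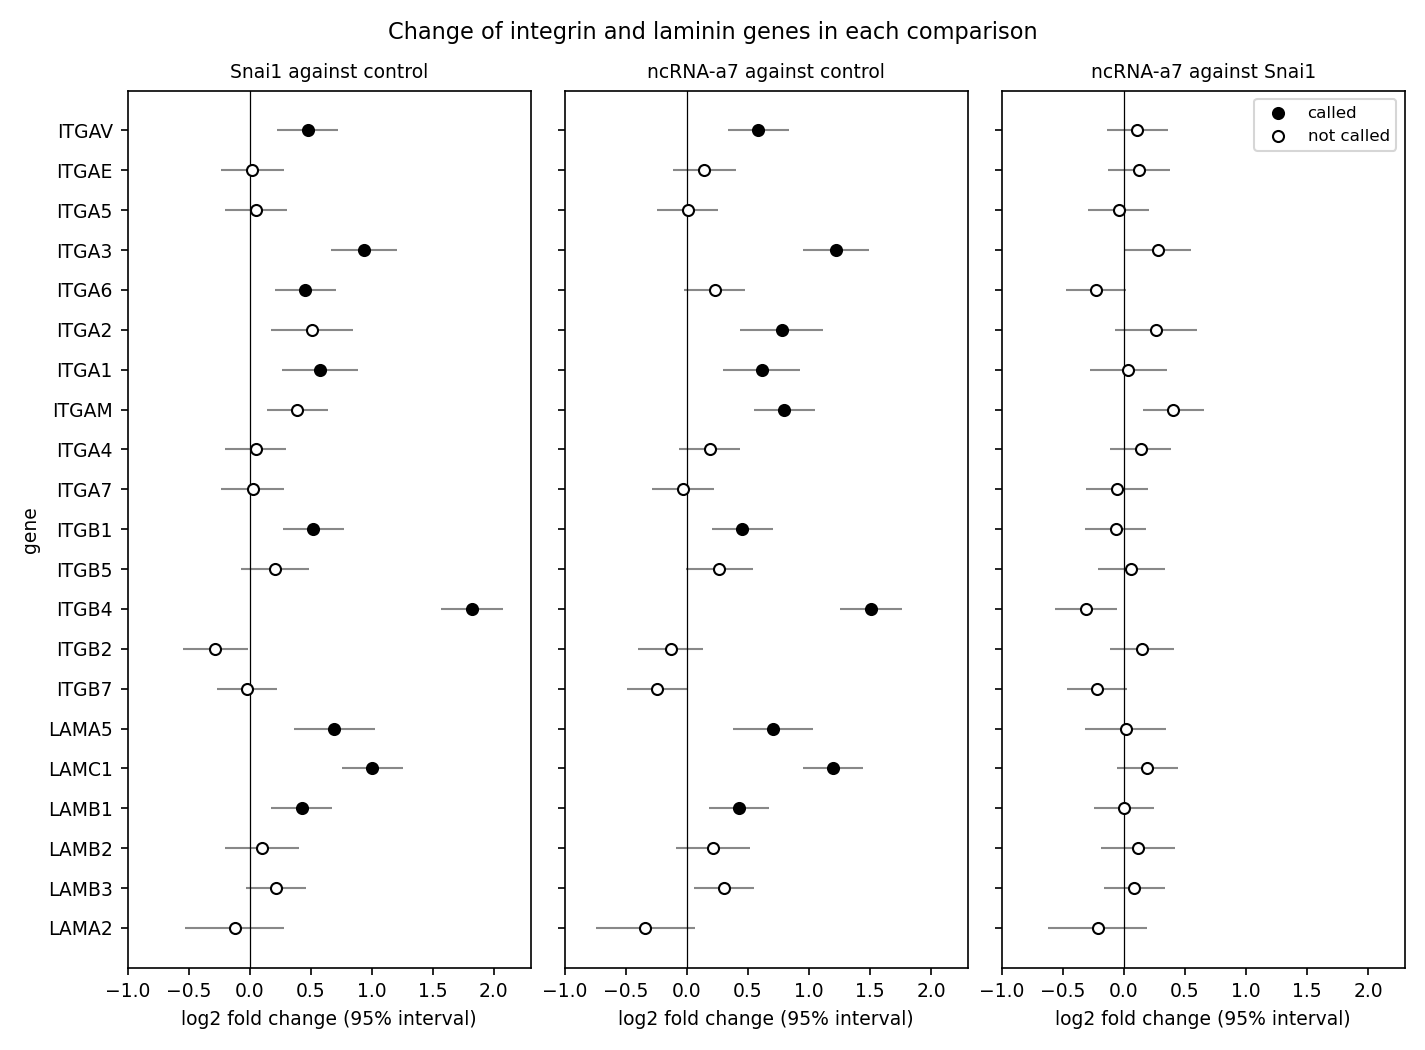
Log2 fold change with its 95% interval for each of the 21 genes in the 3 comparisons, with filled points for called genes. ITGB4, LAMC1 and ITGA3 lie furthest right against control, at 0.94 to 1.82, while no point is filled between the depletions.

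Between the depletions no integrin or laminin gene was called, where 8.11% of all features were. By limma, 3 of the 21 had an unadjusted p under 0.05: ITGAM at 0.41 (95% interval 0.16 to 0.66, adjusted p = 0.0509), ITGB4 at -0.31 (95% interval -0.56 to -0.06, adjusted p = 0.129) and ITGA3 at 0.28 (95% interval 0.01 to 0.55, adjusted p = 0.196), where positive means higher with a7 siRNA. For each of these the arrays of the depletions did not overlap on the normalized scale. Log2 differences of the 21 ran from -0.31 to 0.41 around a median of 0.06. ITGAM was called with no background correction (adjusted p = 0.0451) and with the mean of a gene's probes (adjusted p = 0.0496), and ITGB4 among probes above the 75th percentile (adjusted p = 0.0401).

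Probes of the same gene did not always move together. Of the 35 genes, 12 had several probes. With every probe past the filter tested alone, 11 of 31 member probes rose with Snai1 siRNA, against 4.76% of all probes, and 14 rose with a7 siRNA, against 5.52%. None of the 31 was called lower by limma in either comparison, while 2 with Snai1 siRNA (of ITGB2 and ITGB5) and 0 with a7 siRNA were lower at an unadjusted p under 0.05. For ITGB4 and LAMB1, both probes past the filter rose in both comparisons, whereas for ITGB1 only the brightest was called. For ITGB5 one probe at 133.7 to 189.1 gave -0.35 (adjusted p = 0.179) with Snai1 siRNA, opposite in sign to the other 4 and not called. A second ITGB2 probe gave -0.02 (adjusted p = 0.948) and 0.21 (adjusted p = 0.326). Which transcripts each probe detects was not examined.

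**Figure D3:**
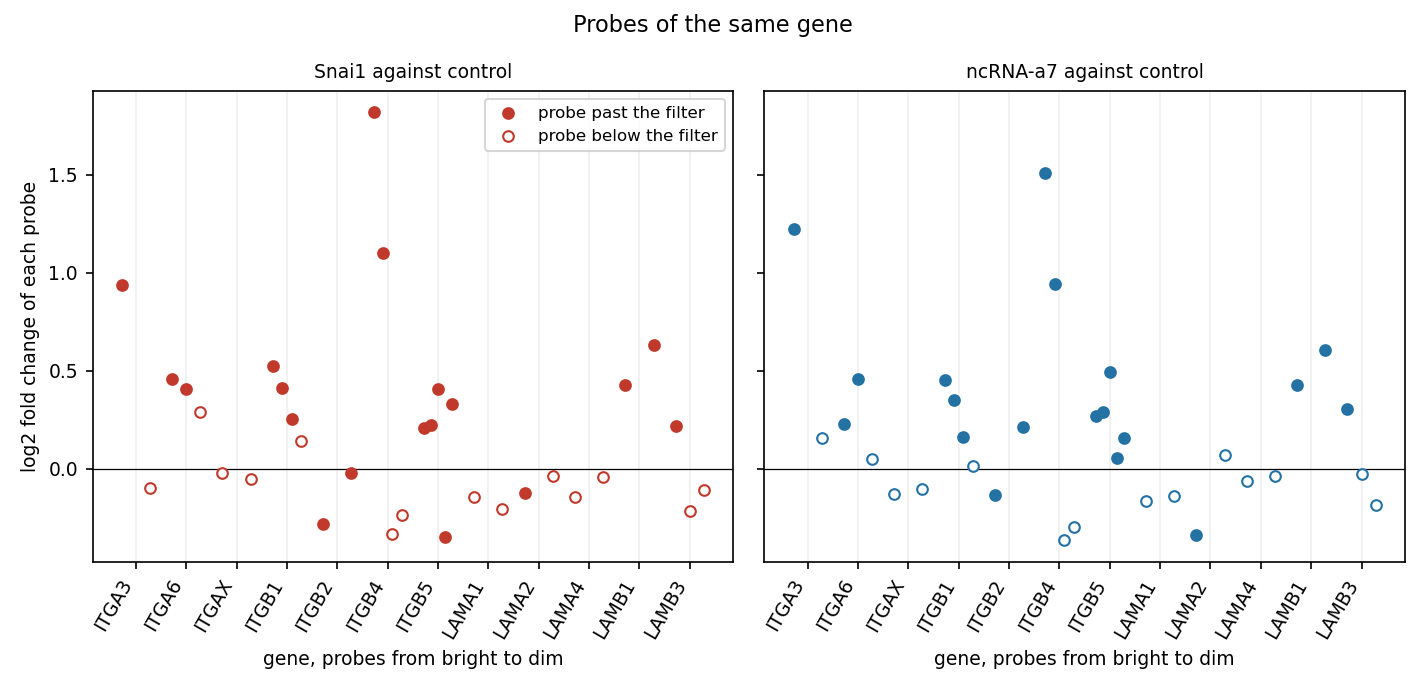
Log2 fold change of each probe of the 12 genes with several probes, ordered from bright to dim within a gene, with open points for probes below the filter. Both ITGB4 probes past the filter lie between 0.94 and 1.82, while its dim probes lie between -0.24 and -0.36.

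The intracellular linkers of integrins to actin moved in part. Of 23 listed, 20 were tested, and 3 rose and 0 fell with Snai1 siRNA (median log2 0.11). Over all features, 4.88% were called higher and 4.28% lower there. TNS4, a tensin of epithelial cells, rose 1.81-fold (log2 0.86 ± 0.13, adjusted p = 0.00232) and kept its call in all 17 alternatives that tested it. PXN, the adaptor paxillin, rose 1.62-fold (log2 0.69 ± 0.12, adjusted p = 0.00347), and TNS2, another tensin, rose 1.5-fold (log2 0.58 ± 0.16, adjusted p = 0.0421). Adjusted p was 0.0575 without control array 1 for PXN, and 0.107 to 0.288 without Snai1 array 2 or either control array for TNS2. With the mean of its probes TNS2 gave 0.33 (adjusted p = 0.227), and the authors' scaled values gave 0.35 for TNS2 and 0.55 for TNS4, both called. With a7 siRNA 5 rose and 1 fell (median log2 0.16), where 5.78% and 4.16% of all features were called higher and lower. TNS1, TNS4 and PXN were among the 5, at log2 0.47, 0.47 and 0.45. These calls were lost with an offset of 16, with median scaling and with no filter. PARVA, the scaffold alpha-parvin, rose 1.41-fold (log2 0.49 ± 0.11, adjusted p = 0.0181), TNS3, also a tensin, rose 1.36-fold (log2 0.44 ± 0.11, adjusted p = 0.0285), and FERMT2, the integrin activator kindlin-2, fell 1.38-fold (log2 -0.46 ± 0.11, adjusted p = 0.0265). All 3 calls were lost without single arrays. Adjusted p was 0.0866 to 0.122 without either control array or a7 array 1 for PARVA, 0.0674 to 0.156 without any 1 of the 4 arrays compared for TNS3 and 0.0716 to 0.19 without any 1 of the 4 arrays compared for FERMT2. TNS3 was also higher and FERMT2 lower with a7 than with Snai1 siRNA, by log2 0.52 (adjusted p = 0.0173) and -0.54 (adjusted p = 0.0161), again with adjusted p 0.0564 to 0.0961 without any 1 of the 4 arrays compared for TNS3 and 0.0592 to 0.138 without Snai1 array 2 or either a7 array for FERMT2.

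Of 19 integrin signalling and trafficking genes, 17 were tested. With Snai1 siRNA 2 rose and 0 fell, and with a7 siRNA 1 rose and 0 fell (median log2 0.14 and 0.04). The shares of all features called higher and lower were 4.88% and 4.28% with Snai1 siRNA and 5.78% and 4.16% with a7 siRNA. DAB2, an endocytic adaptor for integrins, rose 1.76-fold (log2 0.82 ± 0.13, adjusted p = 0.00246) and 1.77-fold (log2 0.83 ± 0.13, adjusted p = 0.00202) and kept both calls in all 18 alternatives. CAV1, the caveolar coat protein caveolin-1, rose 1.4-fold (log2 0.48 ± 0.12, adjusted p = 0.0292) with Snai1 siRNA, but had adjusted p 0.0948 to 0.158 without any 1 of the 4 arrays compared. GIT1, a scaffold of focal adhesions, was lower with a7 than with Snai1 siRNA, at log2 -0.50 (adjusted p = 0.0311), with adjusted p 0.0517 to 0.165 without either Snai1 array, either control array or a7 array 1.

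Of 8 listed hemidesmosome partners of ITGB4, 5 were tested, with 1 called higher and 0 lower with Snai1 siRNA and 0 higher and 1 lower with a7 siRNA. Over all features, 4.88% were higher and 4.28% lower with Snai1 siRNA, and 5.78% and 4.16% with a7 siRNA. PLEC, the plakin that ties beta4 to keratin, read 636 and 939 on the control arrays, 1159.7 and 959.9 on the Snai1 arrays and 739.8 and 778 on the a7 arrays. The Snai1 arrays lay above both controls, and the a7 arrays between them. It rose 1.49-fold (log2 0.58 ± 0.14, adjusted p = 0.0208) with Snai1 siRNA, gave 0.02 (95% interval -0.28 to 0.32, adjusted p = 0.949) with a7 siRNA, and was lower with a7 than with Snai1 siRNA, at log2 -0.56 (adjusted p = 0.0289). The PLEC rise had adjusted p 0.17 to 0.223 without Snai1 array 2 or control array 1, and its difference between depletions 0.0586 to 0.204 without any 1 of the 4 arrays compared. ERBIN, a scaffold that binds beta4, read 665 and 809.7 on the control arrays, 749.8 and 605 on the Snai1 arrays and 439.6 and 527 on the a7 arrays, lowest on the a7 arrays without overlap. It fell 1.54-fold (log2 -0.62 ± 0.13, adjusted p = 0.011) with a7 siRNA and was lower there than with Snai1 siRNA, at log2 -0.61 (adjusted p = 0.0156). With the mean of its probes ERBIN gave -0.34 (adjusted p = 0.0944) against control and -0.34 (adjusted p = 0.108) between the depletions, neither called. The ERBIN fall had adjusted p 0.0786 to 0.0839 without either control array or a7 array 1, and its difference between depletions 0.103 to 0.129 without Snai1 array 2 or a7 array 1.

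Of 19 basement membrane partners and other laminin receptors, 13 were tested, with 3 higher with Snai1 siRNA, 1 higher with a7 siRNA and 0 lower in either. Of all features, 4.88% were higher and 4.28% lower with Snai1 siRNA, and 5.78% and 4.16% with a7 siRNA. COL18A1, the core protein of collagen XVIII, rose 1.37-fold (log2 0.46 ± 0.11, adjusted p = 0.0249) with Snai1 siRNA and 1.78-fold (log2 0.83 ± 0.11, adjusted p = 0.00087) with a7 siRNA. COL4A1 and COL4A2, the paired chains of the collagen IV network, rose 1.43-fold (log2 0.52 ± 0.11, adjusted p = 0.0141) and 1.35-fold (log2 0.43 ± 0.11, adjusted p = 0.0342) with Snai1 siRNA. These 3 Snai1 calls were lost without single arrays. Adjusted p was 0.0793 to 0.157 without any 1 of the 4 arrays compared for COL18A1, 0.0678 to 0.12 without any 1 of the 4 arrays compared for COL4A1 and 0.111 to 0.18 without any 1 of the 4 arrays compared for COL4A2. The a7 call of COL18A1 stood in all 18 alternatives. COL4A1 read 2177 and 2680.1 on the control arrays, 3826 and 2618 on the Snai1 arrays and 1862 and 1919 on the a7 arrays, lowest on the a7 arrays. It was lower with a7 than with Snai1 siRNA by log2 -0.80 (adjusted p = 0.00202), in all 18 alternatives.

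Of 20 other integrin ligands, 15 were tested, with 2 higher and 1 lower with Snai1 siRNA and 2 higher and 0 lower with a7 siRNA. Beside these, 4.88% of all features were higher and 4.28% lower with Snai1 siRNA, and 5.78% and 4.16% with a7 siRNA. VTN, the alphaV ligand vitronectin, rose 1.97-fold (log2 0.98 ± 0.20, adjusted p = 0.00989) and COL1A1, a chain of collagen I, rose 1.45-fold (log2 0.53 ± 0.12, adjusted p = 0.0193) with Snai1 siRNA, while THBS1, the matrix protein thrombospondin-1, fell 1.7-fold (log2 -0.77 ± 0.14, adjusted p = 0.00453). Adjusted p was 0.0836 to 0.0879 without Snai1 array 2 or control array 1 for VTN, whose difference without control array 1 was 0.59, 0.0871 to 0.165 without Snai1 array 2 or either control array for COL1A1 and 0.0591 without control array 2 for THBS1. CCN2, a matricellular ligand, read 1681 and 2182 on the control arrays, 1806 and 1533 on the Snai1 arrays and 3305 and 3204 on the a7 arrays. The a7 arrays lay above all others, and Snai1 and control arrays overlapped. It rose 1.81-fold (log2 0.86 ± 0.12, adjusted p = 0.00126) with a7 siRNA, gave -0.10 (95% interval -0.37 to 0.17, adjusted p = 0.704) with Snai1 siRNA, and differed between them by log2 0.96 (adjusted p = 0.00121), the a7 rise and this difference in all 18 alternatives. ADAM15, a surface protease that can bind integrins, rose 1.31-fold (log2 0.39 ± 0.11, adjusted p = 0.0486) with a7 siRNA, with adjusted p 0.065 to 0.207 without any 1 of the 6 arrays. That call was also lost with a replicate block (adjusted p = 0.0676) and in 6 further settings, among them the mean of its probes, at 0.21 (adjusted p = 0.247). COL1A1 was lower with a7 than with Snai1 siRNA, at log2 -0.49 (adjusted p = 0.0325), with adjusted p 0.0575 to 0.226 without Snai1 array 2, either control array or either a7 array. The authors' scaled values gave 0.33 for its rise, still called, and -0.27 (adjusted p = 0.131) for this difference. Of 5 fibroblast markers, which include COL1A1, 4 were tested and 2, COL1A1 and LUM, rose with Snai1 siRNA. Their summed signal was 1018 and 1206 on control, 1357 and 1122 on Snai1 and 1085 and 1168 on a7 arrays, and their part in the COL1A1 result was not tested.

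**Figure D4:**
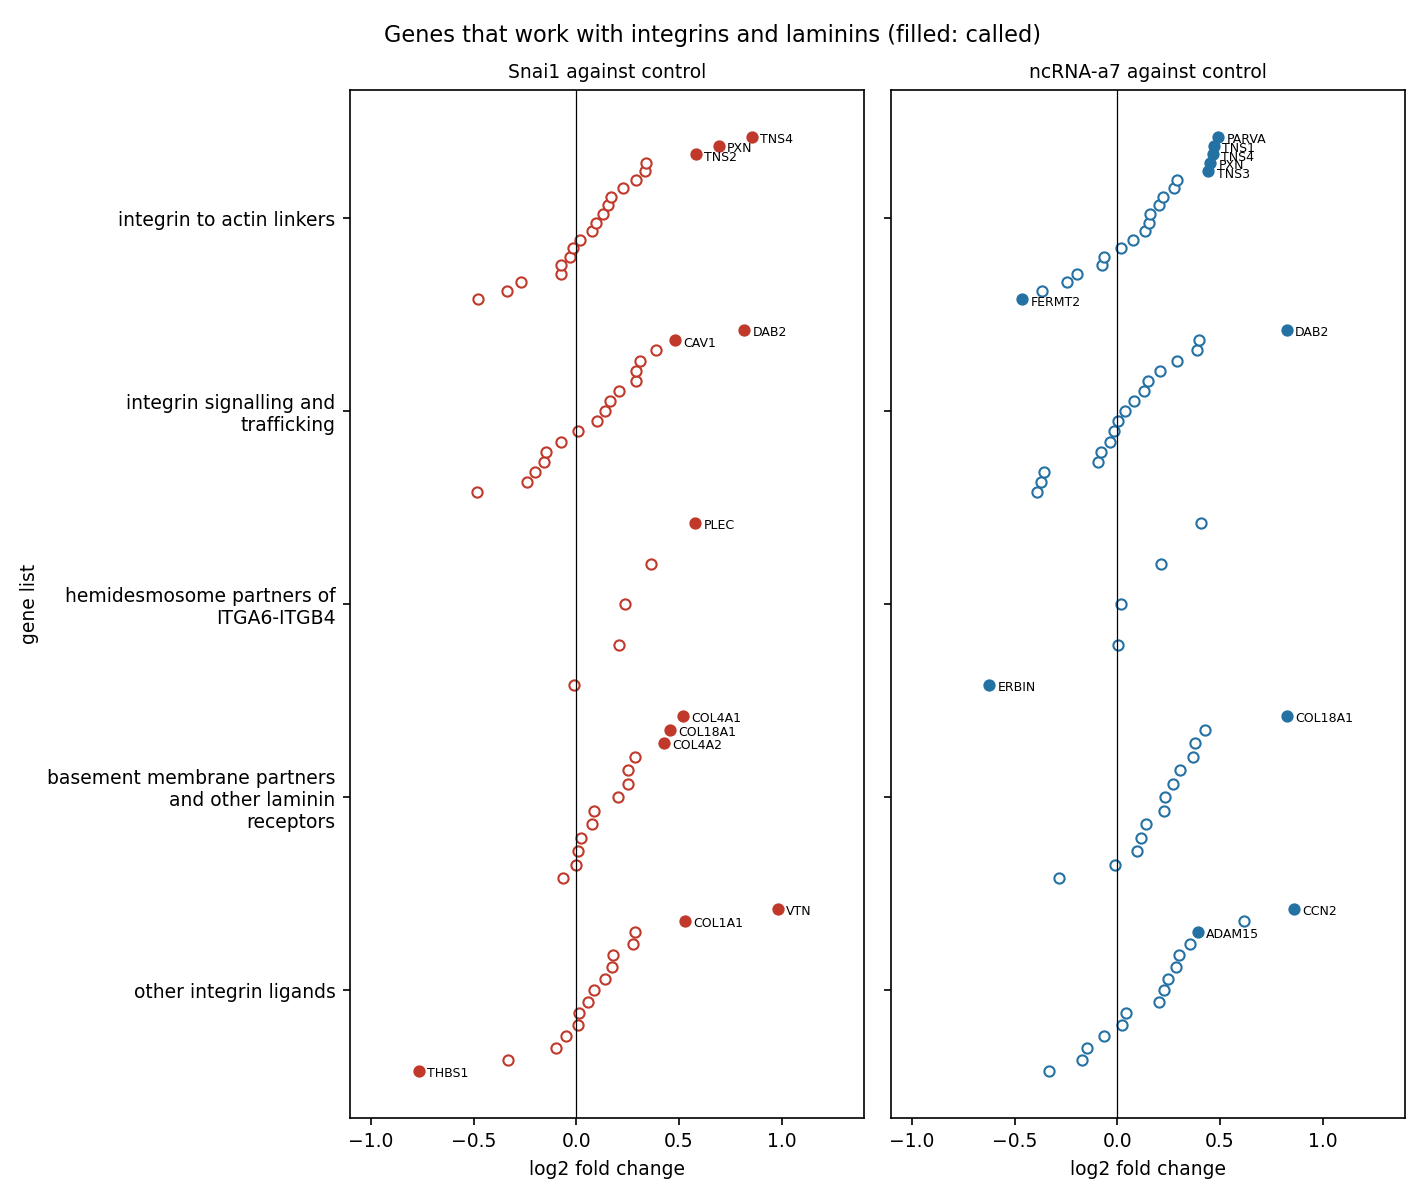
Log2 fold change of the tested genes of 5 lists that work with integrins and laminins, 1 point per gene, filled where called. Most genes are open points around 0, and the called genes include DAB2 to the right in both panels and ERBIN to the left with a7 siRNA.

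The other 14 integrin and laminin genes lay below the filter and were read at 110.5 to 172.1. They were the platelet and blood-cell chains ITGA2B, ITGAL, ITGAX and ITGAD, the matrix receptor chains ITGA9, ITGA10 and ITGA11, the alphaV partners ITGB3, ITGB6 and ITGB8, and the laminin chains LAMA1, LAMA4, LAMB4 and LAMC3. Their signals stood between the 1.396 and 62.17 percentiles of their arrays, 9 of them below the filter in every group and 5 above it in some group. With no filter, limma called 0 of the 14 in any comparison. At an unadjusted p under 0.05 there were 2 with Snai1 siRNA, ITGA11 and ITGA2B, both lower at log2 -0.40 and -0.33, and 1 with a7 siRNA, ITGB6, higher at 0.31. Between the depletions there was 1, ITGA2B, at 0.31. Background was not measured on these arrays as used here, so a signal this low gives no evidence on whether the gene is expressed.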

How the data were processed

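Total RNA of 3 groups of 2 arrays was labelled with biotin and read in 1 colour, per the labels. The deposited scanner table holds 1 linear signal intensity per probe, not normalized, as its values show. The deposited matrix holds the authors' intensity values, each array's scanner values times 1 constant of 0.783 to 1. Software and background measures are not given in the sources used here.

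Intensities were corrected by normexp (offset 50), quantile normalized and put on the log2 scale in limma 3.58.1 (R 4.3.3). Of 48701 deposited probes, 28044 carried 1 gene symbol, 13 several and 20644 none. The brighter of them, by mean log2 value against the median, stayed (24350), and each gene was read from its brightest one, giving 13057 named genes and 6673 unnamed probes. A single lmFit and eBayes fit took all 6 arrays (3 residual and 8.902 prior degrees of freedom), with two-sided tests and Benjamini-Hochberg adjustment over the 19730 features. The median standard error was 0.125. The scripts were tested on simulated data. The number of arrays limits the precision.

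Members and gene lists were chosen with earlier results of these data known. Named are all called members, the chief epithelial subunits whether called or not, and up to 3 called genes of each list and comparison with the smallest p. The further linkers called with a7 siRNA are named as well. All 35 members matched RefSeq gene IDs, and 0 symbols differed. The alternatives, given in the closing section, covered background correction, scaling, filter, probe choice, variance prior, groups fitted, a replicate block and leaving out each array. Figures were drawn with matplotlib 3.10.9.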

Additional observations from a re-analysis of the deposited data

How the results depend on the processing

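Of the 19 calls of integrin and laminin genes, 6 stood in all 18 alternatives, 1 (ITGAM with a7 siRNA) in the 17 that tested it, 12 were lost under at least 1, 4 uncalled differences were called under at least 1, and 0 reversed. With Snai1 siRNA, 963 features were higher and 844 lower, 1807 in all. That total was 966 with an offset of 16, 1067 with median scaling (360 higher and 707 lower), 820 with no filter, 2718 with a trended variance prior and 467 to 1942 without 1 array. Members called higher with Snai1 siRNA, 9 in the report, numbered 3 with an offset of 16, 3 with median scaling, 4 with no filter and 3 to 9 without 1 array. With a7 siRNA, the 1962 features called became 1018 with an offset of 16, 922 with median scaling, 822 with no filter and 563 to 1768 without 1 array, and the 10 members became 6 with an offset of 16 and 4 to 10 without 1 array. Between the depletions, 1601 features were called, 58.4% of them higher with a7 siRNA. That number was 2492 with no background correction, 559 with an offset of 16, 699 with median scaling (493 higher and 206 lower, 70.5% higher), 498 with no filter, 2498 above the 75th percentile, 2574 with a trended prior and 341 to 1153 without 1 array. Members called between the depletions numbered 1 higher with no background correction, 1 higher with the mean of a gene's probes and 1 lower above the 75th percentile. A fit without arrays tests with fewer arrays, and no filter tests more features. Otherwise the cause was not tested.

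With the replicate number as a block, 1664, 1730 and 1433 features and 9, 10 and 0 members were called in the 3 comparisons. Same-numbered arrays did not deviate together: the correlations of their deviations from the group means were -0.066, 0.012 and -0.006, so the numbers do not pair the arrays.

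Duplicate arrays, an unmeasured background and target probes below the filter limit these results. Depletion of SNAI1 and ncRNA-a7 cannot be checked from these signals, differences of dim genes are understated, and genes below the filter have no test. The alternatives for genes of the other lists were added after seeing the data: of their 31 calls, 7 stood in every alternative that tested them and 24 were lost under at least 1.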
